A study of Mus musculus with 11 samples.

Results

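Cardiac and striated muscle genes are described here in 11 RNA-seq libraries made from mouse facial process explants at E10.5. The set holds 10 genes of the 38561 in the count files: *Myh6*, *Myh7*, *Tnnt2*, *Actc1*, *Myl3*, *Myl4*, *Myl7*, *Tnni1*, *Nkx2-5* and *Ttn*. These genes were chosen from values measured in the same 11 libraries, and their symbols were matched to the Ensembl identifiers of the files, with 1 identifier found for each. Their levels and fold changes are therefore given as a description. Where calls of these genes are printed below, nothing is read from them. Of the 10 genes, 7 passed the filter on low counts, and *Myh6*, *Tnnt2* and *Nkx2-5* did not.

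Each explant held nasal processes together with the maxillary and mandibular parts of the branchial arch. The paper describes a mixed genetic background for its *Wnt9b*KO mice, and no strain of the sequenced embryos is given in the sources used here. Libraries carry the labels wild type (wt, n = 2), *Wnt9b*KO (n = 3), *Rspo2*KO (n = 3) and DKO (n = 3), where the KO embryos are homozygous for a germline null allele of *Wnt9b* or *Rspo2* and DKO embryos for both. Which of the study's *Rspo2* alleles was used for sequencing is not given in the sources used here. No cell type was sorted and no agent was given, and the labels do not say whether a library holds 1 embryo or several. WNT9B is a WNT ligand of the facial ectoderm, and RSPO2 is a secreted enhancer of WNT signaling from the mesenchyme below it.

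A muscle cell contracts when myosin heavy chains of the thick filament pull on actin thin filaments, with troponin and tropomyosin holding the thin filament off until calcium is released. In the embryo, heart, skeletal and smooth muscle use different members of the same gene families, and the early heart also makes several isoforms that later mark only its atria, its ventricles or slow skeletal fibers. At E10.5 the heart tube is beating and lies directly below the branchial arches, whereas the muscle precursors within the arches have only begun to differentiate. Cells of a shared mesoderm field contribute both to the heart and to the muscles of the face.

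Library wt 1 stood apart from the other 10 libraries in these genes, and their comparisons with wt are given with it and without it. Its total of 11136166 counts was the smallest, the others ranging from 13220768 to 18017344, and 3 counts, taken as the floor of a library, correspond in it to 0.268 CPM. CPM are counts relative to the library total after TMM scaling, whose factors lay between 0.915 and 1.10. Read against the labels, the library labelled *Wnt9b*KO 2 held 2.86 CPM of *Rspo2* and the library labelled DKO 3 held 15.5 CPM. For comparison, wt 1 held 14.8 CPM, wt 2 held 16.0 CPM and the *Rspo2*KO libraries held between 4.74 and 6.59 CPM. Both libraries therefore go against their labels and were kept under them. *Wnt9b* lay between 16.2 and 23.3 CPM in the libraries labelled *Wnt9b*KO and DKO and between 10.8 and 16.7 CPM in the others, so its level does not check the labels. The facial mesenchyme genes *Prrx1*, *Alx4*, *Twist1* and *Msx1* were found in every library, at 378, 186, 104 and 137 CPM in wt 1 and 344, 164, 109 and 125 CPM in wt 2.

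A few of the muscle promoters are shown because they hold a CArG box, the element bound by serum response factor in many actin and myosin genes, in the bases just before the start site. They are read 5′ to 3′ on the strand of the gene from RefSeq's promoter table of GRCm38.p6, and capitals mark the matches to the CArG box, to GATAA (the core of sites bound by GATA factors) and to CATTCC (the muscle CAT element bound by TEAD factors), each searched on both strands. Each stretch ends at the last base before the RefSeq start. The *Actc1* stretch is chr2:114052876-114053025 on the minus strand, that of *Myl3* is chr9:110763528-110763677 on the plus strand, and that of *Myl7* is chr11:5898783-5898932 on the minus strand.
Actc1: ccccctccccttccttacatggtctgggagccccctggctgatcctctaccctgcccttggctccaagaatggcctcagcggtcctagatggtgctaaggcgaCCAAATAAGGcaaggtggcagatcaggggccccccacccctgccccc
Myl3: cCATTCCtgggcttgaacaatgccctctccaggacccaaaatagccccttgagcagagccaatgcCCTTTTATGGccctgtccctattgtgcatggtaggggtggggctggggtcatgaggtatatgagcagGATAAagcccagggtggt
Myl7: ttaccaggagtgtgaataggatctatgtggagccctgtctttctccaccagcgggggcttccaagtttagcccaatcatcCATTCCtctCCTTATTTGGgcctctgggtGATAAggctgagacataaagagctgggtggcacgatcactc
Counting the base before the start as -1, the CArG box lies at -47 to -38 in *Actc1*, -85 to -76 in *Myl3* and -61 to -52 in *Myl7*.

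All 10 genes have an entry in the promoter table, with 13 entries in all. In the 250 bases before the start, 3 of the 10 genes held the CArG box, against 1.47% of the 32851 promoters of the table. CATTCC was found in 5 genes (*Myh6*, *Myh7*, *Myl3*, *Myl7* and *Tnnt2*), against 12.6% of all promoters, and GATAA in 3 (*Myl3*, *Myl7* and *Tnnt2*), against 22.6%. *Ttn* held a match to the MEF2 element, found in 2.92% of promoters, and *Myh7* held the NKX2-5 core TNAAGTG, found in 10.1%. The E-box CANNTG was present in 8 of the 10 genes and in 66.2% of all promoters, and TATAAA was present in none of the 10 and in 12.4% of all. These are matches of letters in a window, with no binding measured.

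**Figure D1:**
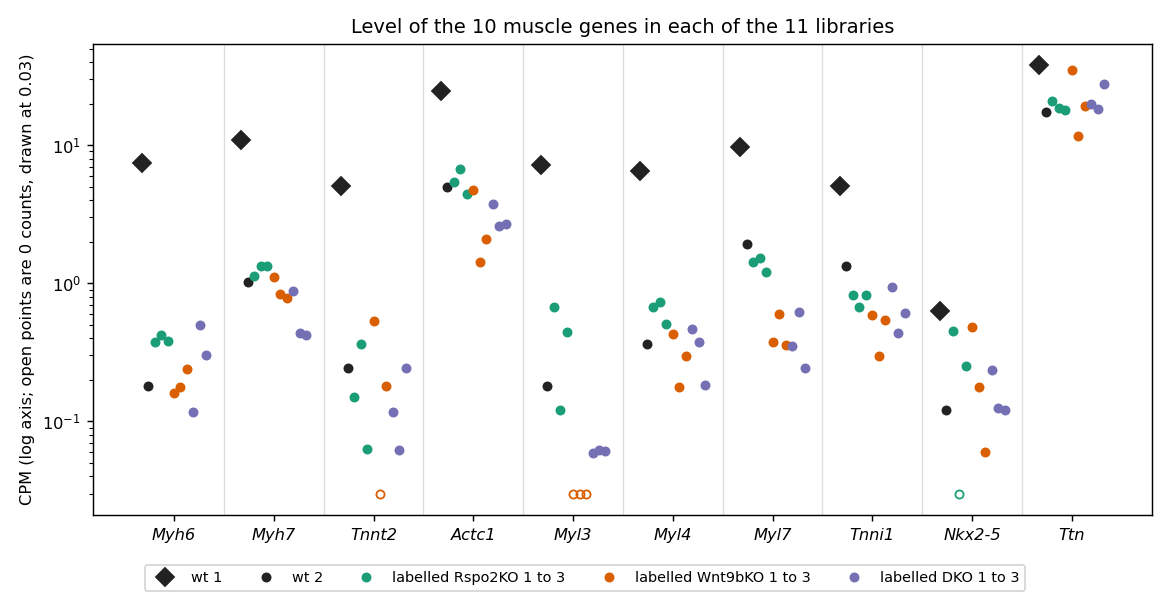
Level of the 10 muscle genes in each library, in CPM on a log axis, with a diamond for wt 1, a black circle for wt 2, colored circles for the libraries labelled *Rspo2*KO, *Wnt9b*KO and DKO, and open circles drawn at 0.03 for libraries with 0 counts. The diamond lies above the other 10 points by 3.67-fold or more in 8 genes, and close to the highest other point in *Nkx2-5* and *Ttn*.

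The heavy chains of cardiac myosin were highest in wt 1, with *Myh6* near the limit of detection elsewhere and *Myh7* at 7 to 22 counts. In bulk explants, fewer cells of a type and less RNA per cell cannot be told apart. *Myh6*, the alpha heavy chain that prevails in atria and in the adult mouse ventricle (chromosome 14, 54941921 to 54966927, GRCm38), was at 7.41 CPM (83 counts) in wt 1 and 0.181 CPM (3 counts) in wt 2. It was 0.374, 0.425 and 0.379 CPM in the libraries labelled *Rspo2*KO 1, 2 and 3, 0.16, 0.179 and 0.24 CPM in those labelled *Wnt9b*KO, and 0.117, 0.498 and 0.303 CPM in those labelled DKO. All 10 other libraries held 8 counts or fewer, and wt 1 was 26.4-fold above their pooled level. *Myh7*, the beta heavy chain of the embryonic ventricle and of slow skeletal fibers (chromosome 14, 54970684 to 54994626), was at 10.9 CPM in wt 1 and 1.03 CPM in wt 2. Its level was 1.12, 1.34 and 1.33 CPM in the libraries labelled *Rspo2*KO 1, 2 and 3, 1.12, 0.835 and 0.78 CPM in those labelled *Wnt9b*KO, and 0.881, 0.436 and 0.425 CPM in those labelled DKO. Those 10 libraries lay between 0.425 and 1.34 CPM, 8.16-fold or more below wt 1.

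The neighboring *Myh6* and *Myh7* share sequence, with 22.6% and 22.2% of the 50-base stretches of their main transcripts also present in another annotated gene, for most of them the other heavy chain, so reads of such stretches could not be split between them. Genes on the other strand overlap both, among them *Mhrt* at *Myh7*, and the strand setting of the counting is not given in the sources used here. Of the counts on the pair, *Myh7* took 59.5% in wt 1 (95% exact Clopper-Pearson interval 52.5 to 66.3, 205 counts) and 76.8% over the other 10 libraries together (70.3 to 82.5, 198 counts). Single libraries ranged from 46.7% in DKO 2 (21.3 to 73.4) and 58.3% in the library labelled DKO 3 (27.7 to 84.8) to 88.2% in DKO 1 (63.6 to 98.5). Intervals and floors here cover counting error only, and the 10 libraries were pooled because single libraries held 12 to 29 counts on the pair.

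Thin-filament genes were likewise highest in wt 1. *Actc1*, cardiac alpha-actin, which embryonic skeletal muscle also makes (chromosome 2, 114047282 to 114053548), was at 24.5 CPM in wt 1 and 4.95 CPM in wt 2. It was 5.39, 6.68 and 4.42 CPM in the libraries labelled *Rspo2*KO 1, 2 and 3, 4.74, 1.43 and 2.1 CPM in those labelled *Wnt9b*KO, and 3.76, 2.62 and 2.67 CPM in those labelled DKO. With 24 to 110 counts, *Actc1* was well above the floor in all 10 other libraries, and wt 1 exceeded the highest of them, *Rspo2*KO 2, by 3.67-fold. *Tnnt2*, cardiac troponin T, which ties troponin to tropomyosin (chromosome 1, 135836354 to 135852260), was at 5.09 CPM in wt 1 and 0.242 CPM in wt 2. It measured 0.15, 0.364 and 0.0632 CPM in the libraries labelled *Rspo2*KO 1, 2 and 3, 0.532, 0 and 0.18 CPM in those labelled *Wnt9b*KO, and 0.117, 0.0623 and 0.243 CPM in those labelled DKO. Its highest value outside wt 1, in the library labelled *Wnt9b*KO 1, came from 10 counts, against 57 in wt 1. *Tnni1*, slow skeletal troponin I and the inhibitory subunit that the embryonic heart uses (chromosome 1, 135779434 to 135810989), was at 5.09 CPM in wt 1 and 1.33 CPM in wt 2. Levels were 0.824, 0.668 and 0.821 CPM in the libraries labelled *Rspo2*KO 1, 2 and 3, 0.586, 0.298 and 0.54 CPM in those labelled *Wnt9b*KO, and 0.94, 0.436 and 0.607 CPM in those labelled DKO. Library wt 2 was the highest of the other 10 for *Tnni1*, 3.83-fold below wt 1.

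The myosin light chains were also highest in wt 1. *Myl7*, the regulatory light chain of atria and of the whole early heart tube (chromosome 11, 5896637 to 5898782), was at 9.65 CPM in wt 1 and 1.93 CPM in wt 2. It was 1.42, 1.52 and 1.2 CPM in the libraries labelled *Rspo2*KO 1, 2 and 3, 0.373, 0.596 and 0.36 CPM in those labelled *Wnt9b*KO, and 0.352, 0.623 and 0.243 CPM in those labelled DKO. *Myl4*, the essential light chain of atria and embryonic muscle (chromosome 11, 104550663 to 104595753), was at 6.52 CPM in wt 1 and 0.362 CPM in wt 2. Its values were 0.674, 0.729 and 0.505 CPM in the libraries labelled *Rspo2*KO 1, 2 and 3, 0.426, 0.179 and 0.3 CPM in those labelled *Wnt9b*KO, and 0.47, 0.374 and 0.182 CPM in those labelled DKO. Wt 1 lay 8.95-fold above the highest other library for *Myl4* and 4.99-fold above it for *Myl7*. *Myl3*, the essential light chain of ventricle and slow skeletal muscle (chromosome 9, 110741861 to 110769798), had the highest ratio of wt 1 to the pooled other libraries within the set, 49.4, from 81 counts in wt 1 (7.24 CPM) and 3 in wt 2 (0.181 CPM). *Myl3* had 9, 2 and 7 counts in *Rspo2*KO, 0, 0 and 0 in *Wnt9b*KO and 1, 1 and 1 in DKO libraries. With 0 counts in each *Wnt9b*KO library, a level of up to 0.18 CPM could have been missed, and the wt mean of 3.71 CPM is at least 20.6-fold above that limit, a bound that rests on wt 1 because wt 2 was itself at 3 counts. The gene *Pth1r* overlaps *Myl3* on the other strand, and predicted genes overlap *Myl4* there.

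*Nkx2-5* and *Ttn* did not separate wt 1 from the rest. *Nkx2-5*, a homeodomain factor required for heart formation (chromosome 17, 26838664 to 26845009), had 7 counts in wt 1 (0.625 CPM), 2 in wt 2, 6, 0 and 4 in *Rspo2*KO, 9, 3 and 1 in *Wnt9b*KO and 4, 2 and 2 in DKO libraries. The library labelled *Wnt9b*KO 1 reached 0.479 CPM, so a difference of wt 1 was not detectable at this depth. *Ttn*, the giant spring protein that spans the sarcomere of heart and skeletal muscle alike (chromosome 2, 76703980 to 76982547), was at 37.8 CPM in wt 1 and 17.4 CPM in wt 2. It was 20.8, 18.7 and 17.9 CPM in the libraries labelled *Rspo2*KO 1, 2 and 3, 35.1, 11.6 and 19.3 CPM in those labelled *Wnt9b*KO, and 19.9, 18.4 and 27.7 CPM in those labelled DKO. By TMM-scaled CPM wt 1 was highest, 1.08-fold above the library labelled *Wnt9b*KO 1, whereas without TMM factors wt 1 was second, at 38.0 CPM against 38.4 CPM in that library.

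Few genes of the whole table were as far above the other libraries in wt 1. Of 15788 genes with at least 20 counts in some library, 18 (0.114%) were more than 3-fold higher in wt 1 than in the highest of the other 10 libraries, and 8 of these 18 are muscle genes of the set, as their selection implies. In 7 of the other libraries there was no such gene, and the remaining 3 held 6 together. Of the 10 other genes in wt 1, 5 stand on the list of cardiac contractile and calcium genes: *Myl2*, the ventricular regulatory light chain, *Mybpc3*, cardiac myosin-binding protein C, *Tnnc1*, troponin C of heart and slow muscle, *Nppa*, the atrial natriuretic peptide, and *Csrp3*, a Z-disc protein. *Tcf21*, a transcription factor of branchial arch mesoderm and epicardium, was also among them. The last 4, *Gm10800*, *Gm10801*, *Gm10717* and *Gm26870*, are predicted genes on no list. Summed over the set, the muscle genes reached 115 CPM in wt 1 (0.0115% of its counts) and 15.3 to 43.5 CPM in the other 10, and without *Ttn* 77.0 CPM against 3.70 to 11.8 CPM.

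Heart genes outside the set were described from a list of 50 contractile and calcium genes, 40 of which had at least 20 counts over the 11 libraries. The list was chosen with earlier results of these data known, so its shares are a description. Of these 40, 19 (47.5%) were highest in wt 1, where 13.8% of 20587 genes with that many counts were highest, and 8 were more than 3-fold above the pooled level of the other libraries. *Myl2* was at 13.8 CPM in wt 1 (155 counts), 0.483 CPM in wt 2, 0.374, 0.304 and 0.379 CPM in *Rspo2*KO and 0 to 1 count in each *Wnt9b*KO and DKO library. *Mybpc3* was at 8.57 CPM in wt 1 against at most 0.729 CPM, *Tnnc1* at 5.27 against at most 1.65 CPM, *Nppa* at 3.13 against at most 0.36 CPM and *Csrp3* at 1.97 against at most 0.182 CPM. *Tnni3* (cardiac troponin I), *Ankrd1* (a Z-disc and nuclear stress protein) and *Unc45b* (a myosin chaperone) were the other 3, at 3.31, 1.7 and 1.07 CPM in wt 1. By contrast, abundant genes of the list such as *Tpm1*, *Srl*, *Slc8a1* and *Nebl* had wt 1 within the range of the other libraries. *Tpm1*, a tropomyosin which non-muscle cells also make, was at 286 CPM in wt 1 against 234 to 349 CPM, *Srl*, a calcium store protein, at 34 against 28.8 to 44.8 CPM, *Slc8a1*, the sodium-calcium exchanger, at 20 against 12.7 to 23.4 CPM, and *Nebl*, a Z-disc nebulin relative, at 17.8 against 11.8 to 21.9 CPM. *Cacna1c*, also among the 6 most abundant, was at 9.11 CPM in wt 1, below the 11.2 to 23.8 CPM of the other libraries. Genes of the list that are neither among its 6 most abundant nor called against wt were named after their values were seen.

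**Figure D2:**
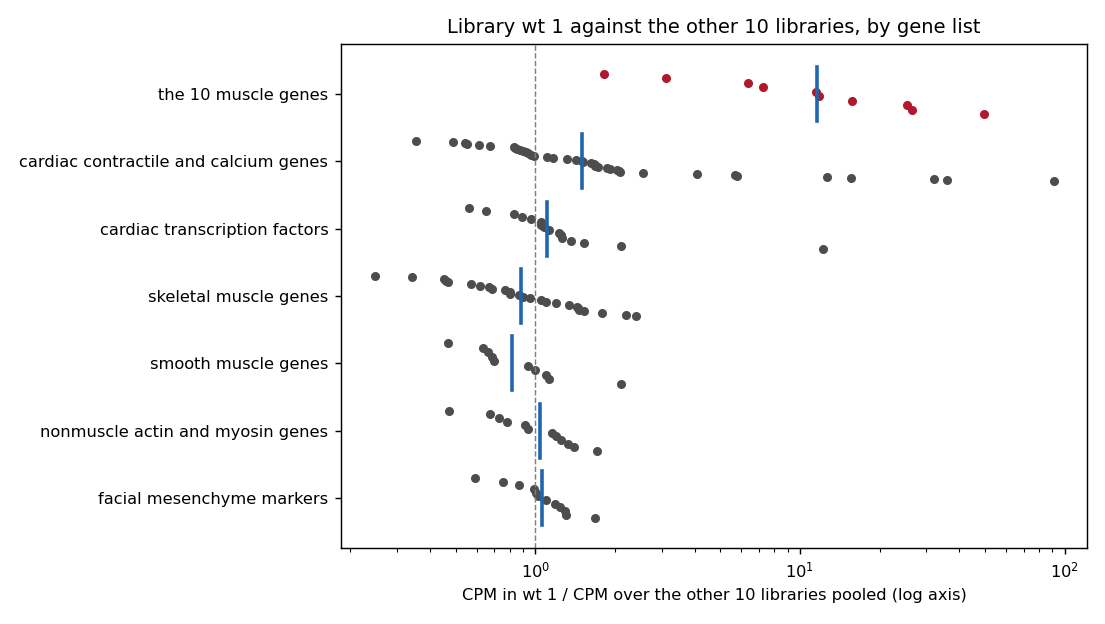
Ratio of the level in wt 1 to the pooled level of the other 10 libraries, on a log axis, for genes with at least 20 counts over the 11 libraries, with 1 point per gene and a vertical bar at the median of each list. The median was 11.6 for the 10 muscle genes and 1.51 for the other cardiac contractile and calcium genes, and lay between 0.818 and 1.10 for cardiac transcription factors, skeletal muscle, smooth muscle, nonmuscle actin and myosin and facial mesenchyme genes.

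Lists for other kinds of muscle lay near the level of all genes. For the ratio of wt 1 to the pooled other libraries, the median was 11.6 over the 10 muscle genes, 1.51 over 40 contractile and calcium genes, 1.10 over 16 cardiac transcription factors, 0.886 over 26 skeletal muscle genes, 0.818 over 10 smooth muscle genes and 0.968 over all 20587 genes. Of the 16 cardiac transcription factors, *Gata4*, a zinc finger factor of heart and foregut, was the only gene more than 3-fold higher, with 10 counts in wt 1 (0.893 CPM) and 0 to 3 elsewhere. The more abundant *Tbx2*, *Isl1*, *Tbx3*, *Mef2c*, *Hand2* and *Smarcd3*, which branchial arch cells also express, were at 72, 52.5, 36.5, 20.6, 16.7 and 13.2 CPM in wt 1 and 75.7, 51.1, 37, 21.9, 12.3 and 12 CPM in wt 2. No skeletal muscle gene was more than 3-fold higher in wt 1, and 10 of 26 (38.5%) were highest in the library labelled *Wnt9b*KO 1, where 14.7% of all genes were highest and where *Ttn* was at 35.1 CPM. Skeletal *Tnnt1* (slow troponin T) was at 6.5 CPM in that library, 4.29 CPM in wt 1 and 3.69 CPM in wt 2, and the muscle progenitor factor *Pax7* was at 14.1 and 15.2 CPM in wt.

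Markers of further cell types were read beside these values, first by their summed level, in which abundant genes weigh most. By this sum the contractile and calcium list was also within the range, at 575.6 CPM in wt 1 against 535.8 to 810 CPM. For endothelial and endocardial genes the summed level was 235 CPM in wt 1 against 213 to 264 CPM in the other libraries, for epicardial and pericardial genes 22.2 CPM against 19.9 to 25.8 CPM, for erythroid genes 4024 CPM against 1798 to 5889 CPM, for liver and gut endoderm genes 28.2 CPM against 18.6 to 41.1 CPM, for branchial arch mesoderm factors 280 CPM against 254 to 369 CPM, and for facial ectoderm genes 208 CPM against 201 to 238 CPM. Only the nonmuscle actin and myosin list left the range of the other libraries among the 12 lists outside the set, at 4272 CPM in wt 1 against 6042 to 6589 CPM, with *Actb*, cytoplasmic beta-actin, at 1816 CPM in wt 1 against 3537 to 4228 CPM. By the median ratio of wt 1 to the pooled other libraries, 6 epicardial and pericardial genes were at 1.496, beside 1.51 for the contractile list. The highest of these 6 genes was at 8.217. The median was 1.302 for liver and gut endoderm, 1.177 for erythroid and 0.9729 for endothelial and endocardial genes. It was 0.7387 for branchial arch mesoderm factors and 0.819 for facial ectoderm genes. *Gm10800*, among the predicted genes above, was at 46.0 CPM in wt 1 and 0.311 to 10.3 CPM elsewhere. The part of the lower depth, of *Actb* and of *Gm10800* in the muscle gene levels of wt 1 was not tested.

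Levels of different genes can be compared only per length, here as CPM per kilobase of the longest principal transcript of the annotation. In wt 1 *Actc1* and *Myl7* led at 16.6 and 16.4 CPM per kilobase, followed by *Myl3* at 7.72, *Myl4* at 6.92, *Tnni1* at 4.43, *Tnnt2* at 4.24, *Myh7* at 1.75, *Myh6* at 1.21, *Nkx2-5* at 0.41 and *Ttn* at 0.376. This order comes from 1 library and has no replicate check. By the median of the other 10 libraries *Actc1* and *Myl7* again led, at 2.78 and 1.03 CPM per kilobase, and *Tnni1*, *Myl4*, *Ttn*, *Myh7*, *Tnnt2*, *Nkx2-5*, *Myl3* and *Myh6* followed, from 0.554 down to 0.0444 CPM per kilobase. *Ttn* moved from the last place to the fifth, and *Myl3* from the third to the ninth. Between every 2 neighbors in the order of the 10 libraries the ranges over libraries overlapped. With the length of all annotated exons in place of the transcript, *Myl7* led in wt 1 and *Tnnt2* took the eighth place.

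Chamber isoforms took other shares of the counts in wt 1 than in the rest. Of the counts on *Myl2* and *Myl7*, the ventricular *Myl2* took 58.9% in wt 1 (exact Clopper-Pearson interval 52.7 to 64.9, 263 counts) and 15.3% over the other 10 libraries together (10.2 to 21.8, 163 counts). Its share was 16.7% to 24.0% in wt 2 and the *Rspo2*KO libraries, from 24 to 40 counts each, and the *Wnt9b*KO and DKO libraries held 5 to 10 counts on the pair. Of the counts on *Myl3* and *Myl4*, *Myl3* took 52.6% in wt 1 (44.4 to 60.7, 154 counts) and 26.1% over the other 10 libraries (17.5 to 36.3, 92 counts). In *Rspo2*KO 1 and 3, however, it took 9 of 18 and 7 of 15 counts, with intervals of 26.0% to 74.0% and 21.3% to 73.4%. Shares of this kind mix libraries of different genotype when pooled, and they are given without a test.

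**Figure D3:**
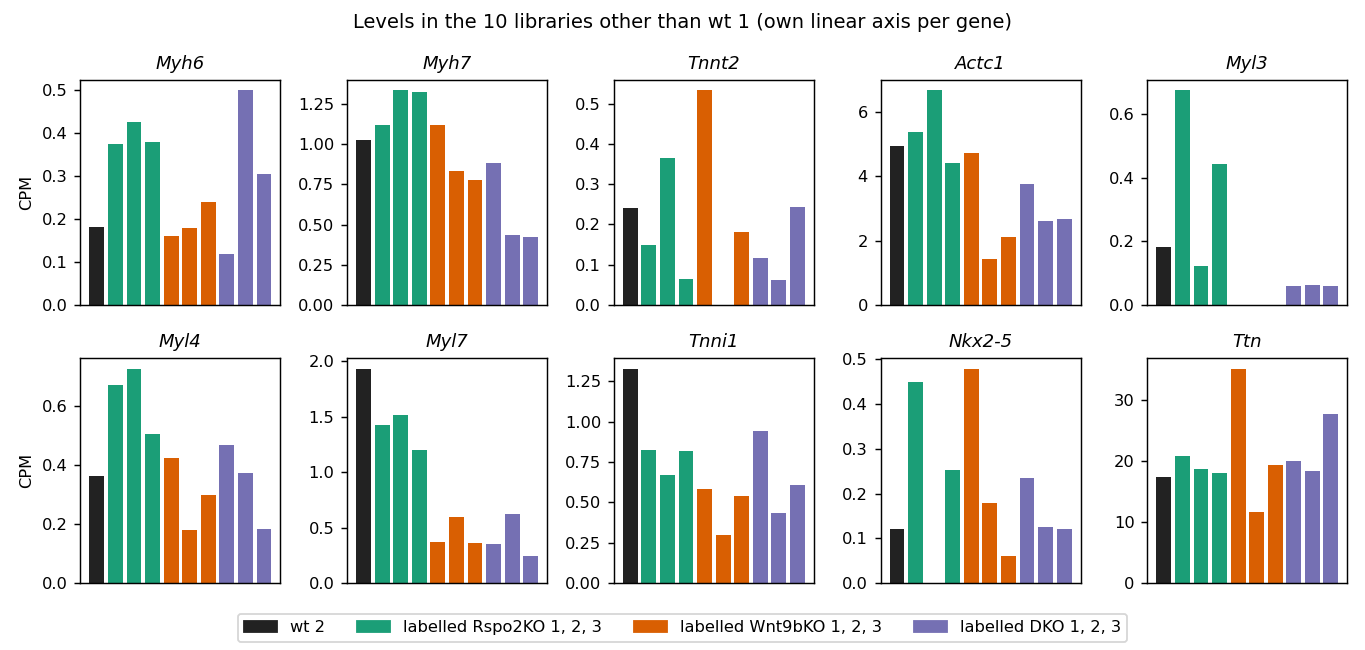
Level of each muscle gene in CPM in the 10 libraries other than wt 1, with 1 bar per library on a linear axis of its own for each gene, starting at 0. *Myl7* is at 1.20 to 1.93 CPM in wt 2 and the *Rspo2*KO libraries and at 0.243 to 0.623 CPM in the *Wnt9b*KO and DKO libraries, and *Ttn* is highest in the library labelled *Wnt9b*KO 1.

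Without wt 1, most of the muscle genes overlapped between libraries labelled wt or *Rspo2*KO and those labelled *Wnt9b*KO or DKO. The exceptions were *Myl7* and *Myl3*, for which every library labelled *Wnt9b*KO or DKO was below every library labelled wt or *Rspo2*KO. *Myl7* was at 1.20 to 1.93 CPM in wt 2 and *Rspo2*KO and at 0.243 to 0.623 CPM in *Wnt9b*KO and DKO, with means of 1.52 and 0.424 CPM. For *Myl3* the ranges were 0.121 to 0.674 CPM and 0 to 0.0623 CPM, that is, 2 to 9 counts against 0 to 1. Such a split, lower in *Wnt9b*KO and DKO, was found for 2 of the 10 muscle genes and for 10.5% of 20587 genes, and for 2 of 40 contractile and calcium genes, 1 of 16 cardiac transcription factors and none of 26 skeletal muscle genes. Smooth muscle genes showed it for 2 of 10 and nonmuscle actin and myosin genes for 3 of 12. It was found for 8 of 10 erythroid markers, whose summed level was 4570 to 5889 CPM in wt 2 and *Rspo2*KO and 1798 to 2919 CPM in *Wnt9b*KO and DKO. The part of blood content in the *Myl7* and *Myl3* levels was not tested. *Myh7* was at 1.03 to 1.34 CPM and 0.425 to 1.12 CPM in the same groups of libraries and *Actc1* at 4.42 to 6.68 and 1.43 to 4.74 CPM, with overlap through the library labelled *Wnt9b*KO 1.

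The fitted differences from wt depended on wt 1. In edgeR's quasi-likelihood test over 17317 genes with 11 libraries, a gene was called at a Benjamini-Hochberg adjusted p below 0.05 and a change over 1.5-fold. Against wt, 6 of the 7 muscle genes that passed the filter were called lower in *Wnt9b*KO, where 9.16% of all genes were called lower and 12.1% higher. In DKO 6 of 7 were called lower, against 6.77% of all genes lower and 9.94% higher. In *Rspo2*KO 0 of 7 were called, against 0.00577% lower and 0.0289% higher. Of the 7, 6 were lower there at an unadjusted edgeR p below 0.05, beside 2069 of 17317 genes below it in either direction. The rule that chose the genes used these contrasts, so nothing is read from the counts. Without the libraries labelled *Wnt9b*KO 2 and DKO 3 the counts were again 6, 0 and 6 for *Wnt9b*KO, *Rspo2*KO and DKO. The 3 comparisons share the 2 wt libraries, and the median log2 fold change of the 7 genes was -2.67, -2.02 and -3.21 for *Wnt9b*KO, *Rspo2*KO and DKO, beside 0.013, 0.0010 and 0.015 over all genes. With *Myl3* set to its bound in *Wnt9b*KO and DKO (-4.37 and -4.31), *Wnt9b*KO and DKO keep these medians.

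With wt 1 left out, wt is the single library wt 2, assumed to vary like the other groups, and 17913 genes were tested. The muscle genes were chosen from values that include those of wt 2, so nothing is read from their calls in this fit either. Of the muscle genes, *Myl7* alone was called, in *Wnt9b*KO and in DKO, where 7.36% and 5.05% of all genes were called lower and 7.39% and 5.35% higher. In *Rspo2*KO 0 of 7 were called, against 0.00558% lower and 0.0335% higher, and none of the 7 had an unadjusted p below 0.05. For *Myl7* the log2 fold change was -3.64 ± 0.56 (SE) in *Wnt9b*KO with wt 1 and -2.12 ± 0.44 without it, and -3.77 ± 0.57 and -2.25 ± 0.45 in DKO. *Myh7* went from -2.63 ± 0.63 to -0.17 ± 0.45 in *Wnt9b*KO and from -2.17 ± 0.62 to 0.31 ± 0.44 in *Rspo2*KO. *Actc1* went from -2.37 ± 0.52 to -0.84 ± 0.46 in *Wnt9b*KO, from -1.39 ± 0.50 to 0.16 ± 0.46 in *Rspo2*KO and from -2.25 ± 0.52 to -0.72 ± 0.46 in DKO. In *Rspo2*KO the sign of *Myh7*, *Actc1*, *Myl3*, *Myl4* and *Ttn* thus turned on wt 1, though none of them was called there with 11 libraries. *Myl4* went from -3.21 ± 0.80 to -0.09 ± 0.69 in DKO, and *Tnni1* from -2.20 ± 0.49 to -1.001 ± 0.47. *Ttn* was not called with 11 libraries. Its log2 fold changes for *Wnt9b*KO, *Rspo2*KO and DKO were -0.31, -0.51 and -0.31 with wt 1 and 0.33, 0.15 and 0.33 without it.

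**Figure D4:**
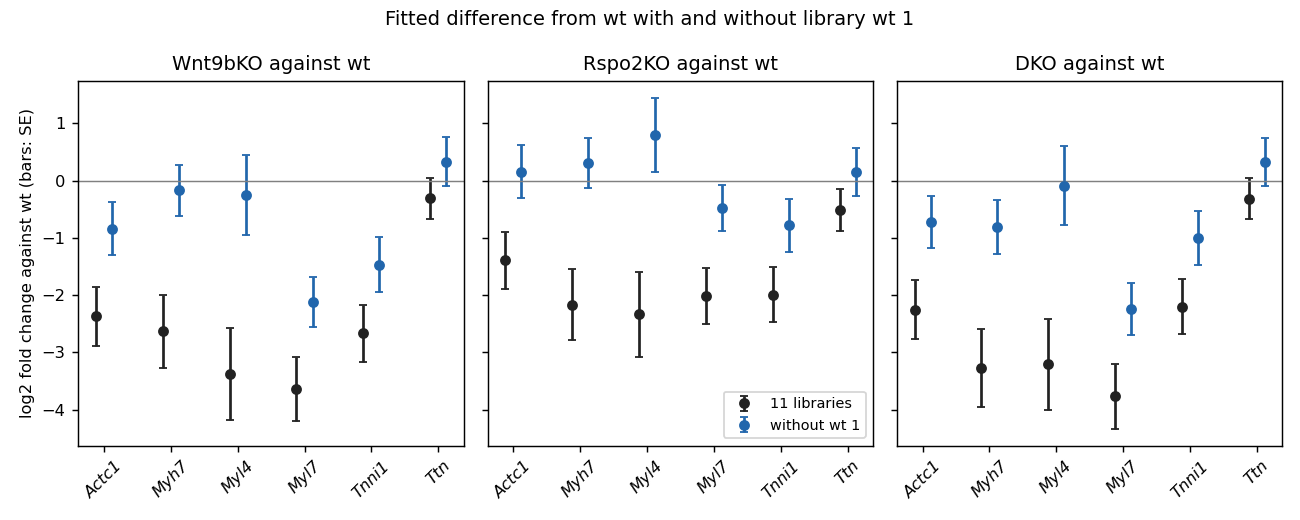
Fitted log2 fold change against wt in *Wnt9b*KO, *Rspo2*KO and DKO for 6 muscle genes, from all 11 libraries (black) and without wt 1 (blue), with SE as bars. *Myl3*, at 0 to 1 count in *Wnt9b*KO and DKO, is left out. Without wt 1 the points move toward 0 or past it, and *Myl7* stays at -2.12 in *Wnt9b*KO and -2.25 in DKO.

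Of the contractile and calcium genes outside the set, 31 of 50 were tested with 11 libraries, and in *Wnt9b*KO 5 rose and 1 fell, against a median of 0.16 on the log2 scale over the list. These 6 are 19.4% of the tested genes of the list, beside 21.2% of all genes called in either direction. Genes that did not pass the filter on low counts are not among them. Without that filter more genes of the list were called, most of them lower, as given below. *Atp2a2*, the calcium pump of the sarcoplasmic reticulum that many cells use, rose in *Wnt9b*KO by 1.41 ± 0.16 on the log2 scale (adjusted p = 3.33e-05), from 105 and 101 CPM in wt to 274, 274 and 273 CPM. *Corin*, the protease that activates natriuretic peptide, rose by 1.07 ± 0.31 (adjusted p = 0.0176), and the calcium channel genes *Cacna1c* and *Cacna1d* by 0.75 ± 0.25 and 0.77 ± 0.26. In DKO 3 rose and 2 fell, 16.1% of the list beside 16.7% of all genes. Among those that rose were *Atp2a2* by 1.33 ± 0.16 and *Corin* by 1.65 ± 0.31, with *Mybpc3* and *Tnnc1* lower. In *Rspo2*KO the log2 fold changes with 11 libraries were 0.49 for *Atp2a2*, 0.80 for *Corin*, 0.44 for *Cacna1c* and 0.41 for *Cacna1d*. No gene of the list was called there by DESeq2 or, with the low-count filter and all 11 libraries, by edgeR. In that edgeR fit 5 of 31 had an unadjusted p below 0.05, beside 2069 of 17317 genes. Without the filter edgeR called some, as given below. Without wt 1, *Corin*, *Cacna1c* and *Cacna1d* were not called in *Wnt9b*KO, at 0.84 ± 0.38, 0.60 ± 0.32 and 0.68 ± 0.34, and *Corin* was called in DKO, at 1.41 ± 0.38. *Mybpc3* and *Tnnc1* were not called without it, at -0.17 ± 1.05 and -0.81 ± 0.56 in DKO, while *Atp2a2* was called in both *Wnt9b*KO (1.44 ± 0.22) and DKO (1.35 ± 0.22), and *Nebl* was called in both as well (0.82 ± 0.19 and 0.77 ± 0.19).

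Of 16 cardiac transcription factors, 14 were tested, and 14.3% of them were called in *Wnt9b*KO and in DKO, beside 21.2% and 16.7% of all genes. *Myocd*, a partner of serum response factor in heart and smooth muscle, rose in *Wnt9b*KO (1.07 ± 0.25, adjusted p = 0.00515) and DKO (1.24 ± 0.25, adjusted p = 0.0026), from 2.23 and 1.75 CPM in wt to 3.41, 4.41 and 4.62 CPM in *Wnt9b*KO and 5.76, 4.3 and 3.88 CPM in DKO. Without wt 1 its log2 fold changes were 1.23 ± 0.32 and 1.40 ± 0.32. In *Rspo2*KO *Myocd* was at 3.97, 3.64 and 3.92 CPM, with log2 fold changes of 0.96 with 11 libraries and 1.14 without wt 1. It was not called there with 11 libraries. *Tbx20*, a T-box factor of heart and cranial motor neurons, fell in *Wnt9b*KO (-1.997 ± 0.44, -2.17 ± 0.54 without wt 1), with 2.34, 5.25 and 2.16 CPM in the 3 libraries and 11.2 and 14.5 CPM in wt. *Tbx2* fell in DKO (-0.86 ± 0.30) and was not called there without wt 1 (-0.90 ± 0.38, adjusted p = 0.141). Of 30 skeletal muscle genes 19 were tested, and 21.1% and 15.8% of them were called, again beside 21.2% and 16.7% of all genes. *Myh8*, a perinatal myosin heavy chain, rose in *Wnt9b*KO (1.10 ± 0.26) and DKO (1.19 ± 0.26), *Neb*, the thin-filament ruler nebulin, rose in *Wnt9b*KO (0.62 ± 0.22), *Chrna1*, a subunit of the muscle acetylcholine receptor, fell in *Wnt9b*KO (-1.04 ± 0.33) and DKO (-1.003 ± 0.33), *Actn3*, an alpha-actinin of fast fibers, fell in *Wnt9b*KO (-1.16 ± 0.26) and *Des*, the muscle intermediate filament, fell in DKO (-0.68 ± 0.15). Without wt 1, which leaves wt 2 as the only wt library, *Actn3* was at -1.15 ± 0.31 and *Neb* at 0.67 in *Wnt9b*KO. *Des* was then at -0.52 in DKO. *Myh8* was at 0.99 and 1.08 and *Chrna1* at -1.01 and -0.97 in *Wnt9b*KO and DKO. In *Rspo2*KO no gene of either list was called by DESeq2 or, with the low-count filter and all 11 libraries, by edgeR. There 2 of 14 transcription factors and 3 of 19 skeletal genes had an unadjusted edgeR p below 0.05, beside 2069 of 17317 genes. With 11 libraries the log2 fold changes in *Rspo2*KO were 0.19 for *Tbx20*, -0.44 for *Tbx2*, 0.69 for *Myh8* and 0.032 for *Neb*. They were -0.72 for *Chrna1*, -0.030 for *Actn3* and -0.37 for *Des*. The interaction of the mutations called 0.0635% of all genes and by edgeR none of the tested contractile, transcription factor and skeletal genes. Of these lists 3, 1 and 1 genes had an unadjusted edgeR p below 0.05, beside 1636 of 17317 genes.

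To see which other genes moved like the set, 14849 genes that passed the filter on low counts and had a mean of at least 1 CPM were used. Each was compared with the mean centered log2 CPM of the 7 tested muscle genes over the 11 libraries. That score was 2.87 in wt 1, 0.14 to 0.36 in wt 2 and *Rspo2*KO and -0.97 to -0.31 in *Wnt9b*KO and DKO. The gene most like it was *Mybpc3*, with Pearson's r of 0.957 and Spearman's rho of 0.918, and it was the only gene of the muscle lists among the first 12. Genes of the lists that did not pass the filter were not candidates. *R3hdm4* (r = 0.948), *Tinagl1* (0.925), *Hnrnpl* (0.900), *Gm26909* (0.899), *Afg3l1* (0.895), ENSMUSG00000053664 (0.887), *Unc13d* (0.885), *Hspbap1* (0.883), *Gm26870* (0.882), *Mmgt2* (0.878) and *Gm10800* (0.877) followed, with Spearman's rho of 0.618 to 0.964. *Hnrnpl*, a splicing factor, was at 840 CPM in wt 1 and 450 to 678 CPM elsewhere, and *Mmgt2* was at 24.5 CPM in wt 1 and 17.9 to 22.4 CPM elsewhere. Without wt 1 and *Rspo2*KO 1, whose scores were farthest from the median, r lay between 0.653 and 0.944 for the 12 genes, and none of the 12 was among the first 12 by that measure. The 11 points share libraries and depth with the score, and the values are a description.

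Among the muscle genes themselves, r between a gene and the mean of the other tested members over 11 libraries was 0.865 to 0.963 for *Myh6*, *Myh7*, *Tnnt2*, *Actc1*, *Myl3*, *Myl4*, *Myl7* and *Tnni1*, 0.54 for *Nkx2-5* and 0.514 for *Ttn*. Without wt 1 it was 0.874 for *Actc1*, 0.798 for *Myl4*, 0.638 to 0.699 for *Myh7*, *Myl3*, *Myl7* and *Tnni1*, 0.268 for *Myh6*, 0.332 for *Tnnt2*, 0.184 for *Nkx2-5* and -0.00777 for *Ttn*. With counts as low as those of *Myh6*, *Tnnt2* and *Nkx2-5* outside wt 1, a weak correlation is no finding. *Ttn* held 195 to 659 counts in the other libraries, so this limit does not apply to it.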

How the data were processed

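Total RNA of E10.5 facial process explants was sequenced as single-end 50 bp reads. The authors trimmed reads with Cutadapt (reads under 30 bp discarded), mapped them to GRCm38 with STAR, counted them per gene with HTSeq-Count and deposited the whole-number counts without normalization; versions, annotation release and strand setting are not given in the sources used here. The paper's methods state 3 samples per genotype, and 11 libraries were analysed here, grouped by title. Replicate numbers come from the labels, and p-values measure the spread between these libraries, which may be technical where embryos are not stated to be separate. No 2 libraries held identical counts.

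Of 38561 genes, 36639 matched GENCODE vM21 (GRCm38) by identifier. The counts were filtered with filterByExpr on genotype, scaled by TMM and fitted with a mean per genotype over all 11 libraries by edgeR's quasi-likelihood test (R 4.3.3, edgeR 4.0.16, limma 3.58.1), with Benjamini-Hochberg adjustment over all genes tested. The fit was tested on simulated data. The paper's methods name DESeq2, used here (1.42.0) as an alternative. log2 CPM used a prior count of 2. Levels, lists and plots were made in Python 3.11.15 with scipy 1.17.1, pandas 2.3.3, matplotlib 3.10.9 and numpy 2.4.6. A count of 3 was taken as the floor of a library.

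Members and lists were chosen with earlier results of these data known. Genes named are the 10 members, per list the 6 tested genes with the highest mean CPM and the genes called against wt where at most 10 were, the 12 genes most like the member score, and *Rspo2* and *Wnt9b*; others were named after their values were seen, and 1 gene that the rule names is not reported here. Alternatives were DESeq2, RLE factors, other filters, only the groups compared, an offset for GC content and length by loess (span 0.3), a block for the replicate number, and leaving out libraries; the offset together with leaving out wt 1 was chosen after seeing the data. Proteins and the genome sequence were not used here.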

Additional observations from a re-analysis of the deposited data

How the results depend on the processing

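Called genes of the contractile and calcium list numbered 6 in *Wnt9b*KO, 0 in *Rspo2*KO and 5 in DKO. Without the low-count filter they numbered 15, 7 and 13, with 9, 7 and 9 of them lower. The share of all genes called without the filter is not given here, so nothing is read from counts under that setting. Genes below the filter include *Myl2* and *Csrp3*, at 155 and 22 counts in wt 1 and at most 8 and 3 elsewhere. The part of wt 1 in these calls was not tested. With only the groups compared there were 3 in *Wnt9b*KO, with at least 10 counts in every library 3 in DKO, and with the offset on GC content and length and wt 1 left out 3 in *Wnt9b*KO and 2 in DKO. Leaving out each library in turn gave 3 to 11 in *Wnt9b*KO, 0 to 5 in *Rspo2*KO and 4 to 10 in DKO, where wt 1 gave 3, 0 and 4 and wt 2 gave 11, 5 and 10. Cardiac transcription factors called numbered 2, 0 and 2. There was 1 in *Rspo2*KO and 4 in DKO without the filter, and 1 in DKO by DESeq2 and with the offset and wt 1 left out. Leaving out each library gave 2 to 5 in *Wnt9b*KO (5 without the library labelled *Wnt9b*KO 1), 0 in *Rspo2*KO and 1 to 2 in DKO, with 1 there without wt 1, wt 2, any *Rspo2*KO library, *Wnt9b*KO 3 or DKO 1. Skeletal muscle genes called numbered 4, 0 and 3, and 5 in DKO with only the groups compared. With the offset and wt 1 left out they numbered 1 in *Wnt9b*KO and 0 in DKO, and leaving out each library gave 1 to 5 in *Wnt9b*KO, 0 in *Rspo2*KO and 0 to 5 in DKO, where wt 1 gave 1 and 0, wt 2 gave 2 in *Wnt9b*KO and the library labelled *Wnt9b*KO 1 gave 5 in DKO. The causes were not tested.

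Deviations from the group means of libraries with the same replicate number correlated with r from -0.105 to 0.236 over 15 pairs, of which 12 were above 0 and 3 above 0.1. All 9 pairs among mutant libraries were above 0 (0.0415 or more), the deviations of the 2 wt libraries mirror each other by construction, and 8 of 11 libraries correlated best with a library of their own number, a hint of pairing from the data. The labels give no shared litter, batch or day, and most pairs were under 0.1, so the block was kept as an alternative. With the replicate number as a block, 11 contractile and calcium genes were called in *Wnt9b*KO and 8 in DKO, and 9 in DKO with the block and the GC and length offset together, while the other counts stayed within 1.5 times. Leaving out the libraries labelled *Wnt9b*KO 2 and DKO 3 together kept all list counts within 1.5 times.

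Of the fold changes of single muscle genes under each alternative, 366 moved by less than 1 SD between libraries of a group, 53 moved further, and none that was called changed sign. That SD takes in the difference between wt 1 and wt 2. Of the 53, 21 came from leaving out wt 1, which is every fold change compared under that setting. A further 18 came from leaving it out with the offset and 9 from leaving out wt 2. Without the filter all 10 muscle genes were fitted. Their median log2 fold change was then -2.98, -2.09 and -3.235 for *Wnt9b*KO, *Rspo2*KO and DKO. Without wt 2, which leaves wt 1 as the only wt library, it was -3.95, -2.95 and -4.21. Calls of the muscle genes are not given for these settings, as the rule that chose the genes used these contrasts. Levels in wt 1 moved by less than the difference between the wt libraries with other scalings. By Spearman's rho, 1 of the 12 genes most like the score was the same.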
